A study of Mus musculus with 6 samples.

Results

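Microglia recognise targets that have been coated with antibody or complement, a coating called opsonisation, through a small set of surface receptors. The 9 genes described here encode those receptors and their signalling or adhesion partners: the Fcγ receptor chains Fcgr1, Fcgr2b, Fcgr3 and Fcgr4, the signalling chain Fcer1g, the integrin chains Itgam and Itgb2, and the anaphylatoxin receptors C3ar1 and C5ar1. They were chosen by gene symbol, as a group named with earlier results of these data known, and all 9 were found among the 46095 gene symbols of the count table. The cells were BV2, an immortalised mouse microglial line used as a model of microglia. RNA was sequenced from 3 libraries of untreated BV2 cells (CON) and 3 libraries of BV2 cells kept for 6 h with recombinant sTREM-1, the soluble form of triggering receptor expressed on myeloid cells 1, at 1 μg/mL. The study asked how sTREM-1 alters microglial functions, phagocytosis among them, and the comparison of the 2 groups gives the RNA response of its opsonin receptors. Both groups are 1 cell line in culture, grown alone, and whether the 3 libraries of a group came from separate cultures is given only as wells seeded per group, so the p-values measure the spread between these libraries, which may be technical.

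Activating Fcγ receptors bind the constant part of immunoglobulin G and signal through a shared partner, the Fc receptor γ chain, which carries the tyrosine motifs that recruit the kinase Syk. A single inhibitory Fcγ receptor, encoded by Fcgr2b, carries its own inhibitory motif and dampens the activating ones when both are engaged. Complement fragments are read by a different set: the integrin CR3, a pair of the Itgam and Itgb2 chains, binds deposited iC3b and drives uptake, whereas the receptors for the small fragments C3a and C5a are G protein-coupled and steer movement and activation.

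After sTREM-1, RNA of 5 of the 9 receptor genes was higher (Fcgr1, Fcgr3, Fcgr4, Itgb2 and C5ar1), RNA of 1 was lower (Fcer1g), and 3 did not pass the test (Fcgr2b, Itgam and C3ar1). The test was edgeR's quasi-likelihood test across the 14120 genes with enough counts, and a gene was called at a Benjamini-Hochberg adjusted p under 0.05. All of these changes were small: the largest was a rise of 19.97%, for Fcgr1, and none of the 9 reached a 1.5-fold change, which 2.13% of all tested genes did while passing the test. Calls were common in these data. Of all tested genes 30.5% were called, 16.5% higher and 14.1% lower, and among the 6230 tested genes with a mean level at or above that of C5ar1, the least abundant of the receptors, 47.6% were called (a background chosen after the values were seen). Against these shares, 6 of 9 is 66.7%. In 7 of the 9 genes the CON and sTREM-1 libraries did not overlap, which was so for 40.7% of all tested genes. The median log2 fold change of the 9 genes was 0.13, beside -0.002 over all tested genes.

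Levels below are in CPM, read counts scaled to a common library size. The libraries held 40070633 to 45877107 counts in genes. These are levels averaged over all cells of a library, so more RNA in each cell and more cells that express a gene cannot be told apart. Within each library, the median of the 9 genes on the log2 scale, relative to their CON means, was 0.005, 0.019 and -0.016 in the CON libraries and 0.069, 0.12 and 0.091 in the sTREM-1 libraries, so every sTREM-1 library lay above every CON library.

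**Figure D1:**
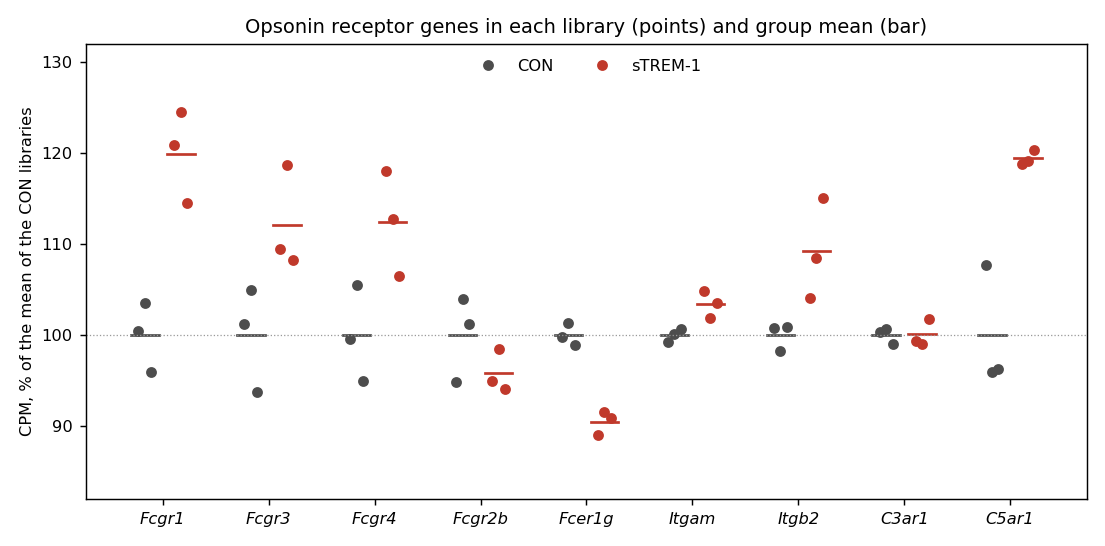
The 9 receptor genes are plotted along the horizontal axis, and the vertical axis gives the CPM of each library as a percentage of that gene's mean over the 3 CON libraries (dotted line). Points are single libraries and bars are group means; Fcgr1 and C5ar1 stand highest after sTREM-1, Fcer1g lies below every CON library, and the points of Fcgr2b and C3ar1 overlap between the groups.

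Fcgr1 encodes the high-affinity receptor, able to bind monomeric immunoglobulin G. It measured 144, 148 and 137 CPM in the 3 CON libraries and 173, 178 and 164 CPM in the 3 sTREM-1 libraries. The lowest sTREM-1 library was thus above the highest CON library. The rise was 19.97%, a log2 fold change of 0.26 with a standard error of 0.03 (adjusted p = 2.1e-07, edgeR). The gene lies on the minus strand at chr3:96282909-96293969 (GRCm38), apart from the other Fcγ receptor genes, which sit close together on chromosome 1.

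Fcgr3 and Fcgr4 encode the low and intermediate affinity activating receptors, which bind immune complexes. Fcgr3 (chr1:171051174-171064935, minus strand) measured 135, 140 and 125 CPM in CON and 146, 158 and 144 CPM after sTREM-1. All 3 sTREM-1 values were above all 3 CON values, although the gap between the closest libraries, 140 and 144 CPM, was narrower than the spread inside either group. The rise was 12.1%, a log2 fold change of 0.17 with a standard error of 0.04 (adjusted p = 0.00079, edgeR). Fcgr4 (chr1:171018920-171029761, plus strand) measured 45.2, 47.9 and 43.2 CPM in CON and 53.6, 51.3 and 48.4 CPM after sTREM-1. Here too the groups did not overlap, with 47.9 and 48.4 CPM as the closest pair. The rise was 12.5%, a log2 fold change of 0.17 with a standard error of 0.05 (adjusted p = 0.0063, edgeR). This call rested on single libraries. Without CON replicate 3 the adjusted p of Fcgr4 in edgeR's test was 0.061 and without sTREM-1 replicate 1 it was 0.068, within a range of 0.0013 to 0.068 over 13 other settings. Each of the 3 activating receptors was lowest in replicate 3 of its group, in CON and after sTREM-1 alike, which was noticed after the values were seen. Taken group by group, other receptor genes did the same. With these 3 included, 5 of the 9 were lowest in CON replicate 3 and 4 in sTREM-1 replicate 3. The share over all tested genes was not computed.

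The stretch at or just upstream of the RefSeq gene start is shown for the 3 activating receptors and Itgam. These 4 are the receptor genes whose promoters held the exact letters searched here as a core of PU.1. PU.1 is the transcription factor that marks the macrophage and microglial lineage, and shorter or looser forms of its site were not searched. The letters searched were GAGGAA on either strand, read as TTCCTC on the other, and the STAT element TTCNNNGAA, which reads the same on both strands; no match of one overlapped a match of the other in these genes. RefSeq promoters, from 250 bases before to 50 after the gene start on GRCm38.p6, were found for 8 of the 9 genes, with Itgb2 the one left out. For Fcgr3 the RefSeq starts lie inside the GENCODE interval given above, which reaches further upstream, so its stretch surrounds the RefSeq start and not the outer end of that interval. Capitals mark the matches, and each line is read 5′ to 3′ on the strand of the gene.
Fcgr1, chr3:96293989-96294108, minus strand: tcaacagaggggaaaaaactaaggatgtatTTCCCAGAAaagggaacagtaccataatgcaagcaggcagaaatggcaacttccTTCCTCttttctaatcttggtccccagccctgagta
Fcgr3, chr1:171059374-171059439, minus strand: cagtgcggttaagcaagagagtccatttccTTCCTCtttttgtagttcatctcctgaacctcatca
Fcgr4, chr1:171018874-171018939, plus strand: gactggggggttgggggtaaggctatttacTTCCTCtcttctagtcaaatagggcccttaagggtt
Itgam, chr7:128062595-128062660, plus strand: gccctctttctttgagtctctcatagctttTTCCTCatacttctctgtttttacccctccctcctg

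In Fcgr1 the PU.1 core began 55 bases upstream of the start and the STAT element 109 bases upstream. The core began 22 bases upstream in Fcgr4, 15 in Itgam, and 6 or 15 in Fcgr3, for which RefSeq lists a pair of starts. Itgam had further cores 84 bases upstream and 33 bases downstream of the start. Such short patterns are common: of 32851 mouse promoters of the same length, 28.3% held the PU.1 core, 8.3% the STAT element and 2.38% both. Fcgr1 was the one receptor gene with a STAT element in this window. The matches are a description of the letters, and binding was not measured.

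Fcer1g encodes the γ chain through which these activating receptors signal, and it was the receptor gene that fell. It measured 383, 389 and 380 CPM in CON and 342, 352 and 349 CPM after sTREM-1. Every sTREM-1 library was below every CON library, and the gap between the groups was wider than the spread inside them. Its RNA fell by 9.52%, a log2 fold change of -0.14 with a standard error of 0.02 (adjusted p = 1.6e-05, edgeR). The gene lies at chr1:171229572-171234365 on the minus strand, beyond Fcgr3 on the same chromosome.

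Fcgr2b (chr1:170958617-170976547, minus strand) encodes the inhibitory receptor. It measured 78.2, 85.7 and 83.4 CPM in CON and 78.3, 81.2 and 77.6 CPM after sTREM-1. The groups overlapped. Its log2 difference was -0.06 with a 95% interval of -0.14 to 0.02 (adjusted p = 0.25, edgeR), which reaches from a change of -9.13% to one of 1.17%.

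Fcgr2b and Fcgr3 share sequence, which bears on how reads could be divided between them. Their longest identical stretch is 129 coding bases that span the junction of exons 3 and 4 in the transcripts Fcgr2b-201 and Fcgr3-201 (GENCODE M21). It is shown as the longest of the stretches in which reads from the inhibitory and the activating gene cannot be distinguished. The genomic ends, with an intron inside, are chr1:170966674-170968081 for Fcgr2b and chr1:171054167-171057792 for Fcgr3, both on the minus strand of GRCm38.
Shared by Fcgr2b and Fcgr3: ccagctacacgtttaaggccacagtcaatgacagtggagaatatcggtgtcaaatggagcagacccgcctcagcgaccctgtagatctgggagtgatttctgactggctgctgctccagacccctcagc

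Of all 75-base windows in the longest coding transcript, 94 of 1273 in Fcgr3 (7.38%) occurred also in Fcgr2b, and 231 of 3470 in Fcgr2b (6.66%) occurred in Fcgr3 or another gene. Fcgr1, Fcgr4 and Fcer1g shared no such window with any other gene. Gm38204, an antisense gene, overlaps exons of Fcgr2b, and whether reads were counted by strand is not given in the sources used here. The levels of Fcgr2b and Fcgr3 are therefore uncertain to the extent that reads of these windows were lost or misassigned, and the part of such reads in the differences between groups was not tested.

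The balance of the activating receptors and Fcgr2b was read inside each library, where the scaling between libraries cancels. Levels were first divided by exon length (all annotated exons joined), and the 3 activating receptors were summed. The size of each ratio therefore depends on the lengths used. For Fcgr2b, the CON mean was 21.7 CPM per kilobase with these lengths and 76.1 with its shortest transcript. Another length for Fcgr2b would shift the ratio in all 6 libraries alike and leave the log2 difference between groups as it is. The ratio of activating receptors to Fcgr2b was 9.34, 8.86 and 8.22 in CON and 10.6, 10.6 and 10.3 after sTREM-1. It was higher in all 3 sTREM-1 libraries, with a difference of 0.26 on the log2 scale (two-sided exact permutation test, p = 0.1). The ratio of Fcgr3 to Fcgr2b was 4.87, 4.61 and 4.23 in CON and 5.26, 5.5 and 5.25 after sTREM-1, a log2 difference of 0.23, again without overlap (exact permutation p = 0.1). With 3 libraries against 3, p = 0.1 is the smallest value this exact test can give, so neither ratio can pass 0.05. Adjusted over the 5 ratios computed, the p of each was 0.125 (exact permutation test, Benjamini-Hochberg).

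The γ chain moved the other way from the receptors it serves. The ratio of Fcer1g to the summed activating receptors was 2.67, 2.61 and 2.82 in CON and 2.1, 2.07 and 2.23 after sTREM-1. The 3 sTREM-1 values lay below all CON values, and the difference of -0.34 on the log2 scale was the largest in size of the 5 ratios (exact permutation p = 0.1, adjusted 0.125). Per length, Fcer1g RNA remained in excess of the summed receptor RNA in all 6 libraries.

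**Figure D2:**
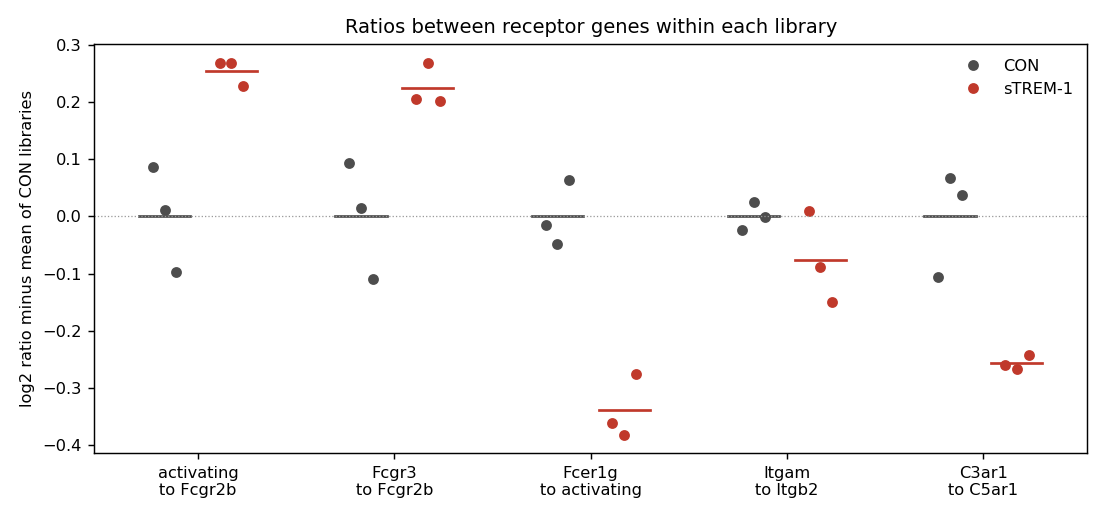
For 5 ratios between receptor genes (horizontal axis), the vertical axis gives the log2 ratio in each library minus the mean of the 3 CON libraries. Points are libraries and bars are group means; activating receptors to Fcgr2b and Fcgr3 to Fcgr2b are higher after sTREM-1, Fcer1g to activating receptors and C3ar1 to C5ar1 are lower, and Itgam to Itgb2 overlaps between the groups.

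CR3, the iC3b receptor, needs both of its chains at the surface. Itgam encodes its α chain, also called CD11b, and Itgb2 the β chain CD18, which is shared with the other leukocyte integrins. Itgam (chr7:128062640-128118491, plus strand) measured 382, 386 and 388 CPM in CON and 404, 393 and 399 CPM after sTREM-1. The groups did not overlap, but the difference was 3.43%, a log2 difference of 0.05 with a 95% interval of 0.00 to 0.10, and it did not pass the test (adjusted p = 0.117, edgeR). Itgb2 (chr10:77530252-77565708, plus strand) measured 91.3, 89.1 and 91.4 CPM in CON and 94.3, 98.3 and 104 CPM after sTREM-1. All sTREM-1 values were above the CON values, and they were spread more widely than those of CON. The rise was 9.18%, a log2 fold change of 0.13 with a standard error of 0.04 (adjusted p = 0.0073, edgeR). Without sTREM-1 replicate 3, the highest library, the log2 difference was 0.087 and the adjusted p 0.085, within a range of 0.0019 to 0.085 over 13 other settings of the test.

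The ratio of Itgam to Itgb2 per length was 2.52, 2.61 and 2.56 in CON and 2.58, 2.41 and 2.31 after sTREM-1. One sTREM-1 library lay inside the CON range, and the log2 difference was -0.08 (exact permutation p = 0.3). The α chain level carries a limit: 71.7% of its 75-base windows are also part of Gm49368, a gene model that overlaps Itgam on the same strand and was not analysed here, and how reads of that stretch were assigned is not given in the sources used here.

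Of the 2 anaphylatoxin receptors, 1 passed the test. C5ar1 (chr7:16246743-16259540, minus strand), the receptor for the chemoattractant C5a, measured 30.1, 26.8 and 26.9 CPM in CON and 33.2, 33.3 and 33.6 CPM after sTREM-1. The sTREM-1 libraries lay close together and above all CON libraries, of which replicate 1 was the highest. The rise was 19.4%, a log2 fold change of 0.26 with a standard error of 0.05 (adjusted p = 0.00053, edgeR). C3ar1 (chr6:122847138-122856161, minus strand), the receptor for C3a, measured 357, 358 and 352 CPM in CON and 354, 352 and 362 CPM after sTREM-1. The groups overlapped. Its log2 difference was 0.00 with a 95% interval of -0.05 to 0.05 (adjusted p = 0.983, edgeR), which reaches from a change of -3.22% to one of 3.47%.

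The ratio of C3ar1 to C5ar1 per length was 7.08, 7.98 and 7.82 in CON and 6.36, 6.33 and 6.44 after sTREM-1. C3ar1 RNA thus stayed above C5ar1 RNA in all 6 libraries, and the ratio was lower in every sTREM-1 library, by 0.26 on the log2 scale (exact permutation p = 0.1, adjusted over the 5 ratios 0.125).

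**Figure D3:**
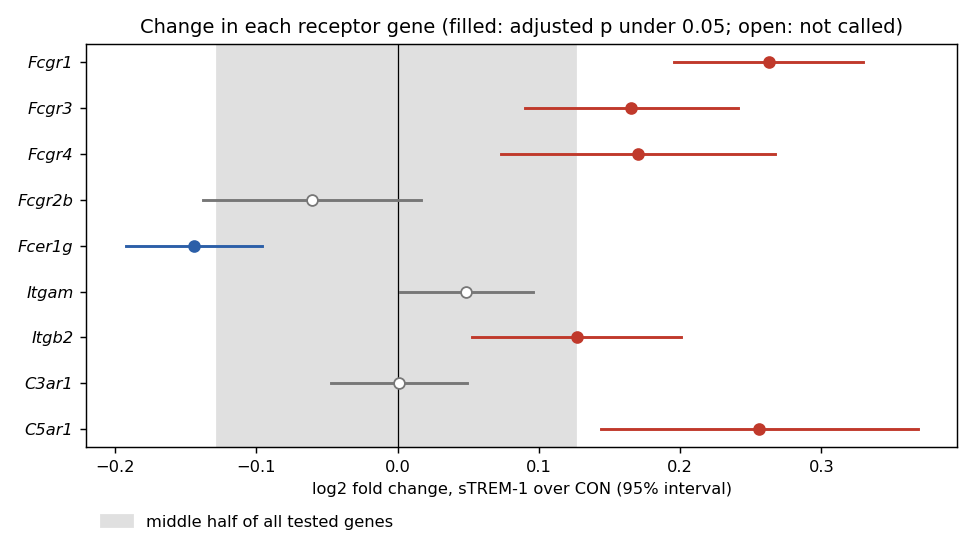
Each receptor gene (vertical axis) is drawn with its log2 fold change, sTREM-1 over CON, on the horizontal axis and its 95% interval from edgeR's test. Filled points passed an adjusted p of 0.05 and open ones did not, and the grey band holds the middle 50% of all tested genes; Fcgr1, Fcgr3, Fcgr4 and C5ar1 lie to the right of the band, Itgb2 at its right edge and Fcer1g to its left.

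The levels of the receptors themselves were compared per length, as CPM per kilobase of exon (all annotated exons of a gene joined). In the CON libraries Fcer1g stood first at 514 ± 6.24 CPM per kilobase (SD, n = 3), followed by Fcgr3 at 98.8 ± 5.66. C3ar1 at 82.7 ± 0.744 and Itgam at 78.2 ± 0.59 came next, then Fcgr1 at 55.4 ± 2.14 and Fcgr4 at 36.2 ± 1.91. Itgb2 at 30.5 ± 0.45, Fcgr2b at 21.7 ± 1.01 and C5ar1 at 10.9 ± 0.729 closed the order. Each gene was above the next in every CON library. The order between neighbours depends on the length used, however: with the longest transcript of each gene C3ar1 and Itgam overlapped, and with the shortest one Itgam stood second and Fcgr2b took the fifth place, at 76.1 CPM per kilobase. The first place of Fcer1g and the last of C5ar1 were the same with all 3 lengths.

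After sTREM-1 the levels per kilobase were 465 ± 6.65 for Fcer1g, 111 ± 5.63 for Fcgr3, 66.4 ± 2.81 for Fcgr1 and 12.98 ± 0.0849 for C5ar1 (SD, n = 3). The group means stood in the order of CON, but C3ar1 and Itgam now overlapped between libraries, at 81.9 to 84.1 and 79.7 to 82.02 CPM per kilobase. Fcgr2b, the single inhibitory receptor, stood below each of the 3 activating receptors in both groups on this scale, but above Fcgr1 and Fcgr4 with the length of the shortest transcript.

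**Figure D4:**
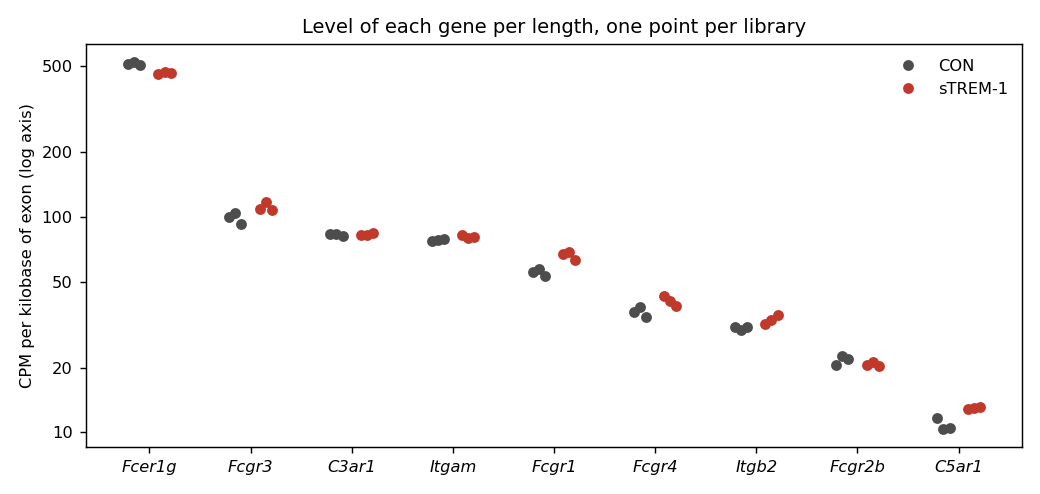
The 9 receptor genes are ordered by their level in CON along the horizontal axis, and the vertical axis gives CPM per kilobase of exon on a log scale, with 1 point per library. Fcer1g stands above all others, C5ar1 is lowest, and the points of C3ar1 and Itgam lie close together.

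Other genes that act with these receptors were read from lists compiled by hand, and each list is described by its counts and median with no test of the list. The counts are to be read beside the shares given above. These were 30.5% of all tested genes called, and 47.6% of those at or above the level of C5ar1. Every list also holds tested genes below that level, so its share and the 47.6% are not from like sets of genes. Among 23 other opsonin and immunoglobulin receptors, 13 had enough counts to be tested and 3 of these (23.1%) were called, 2 higher and 1 lower. Their median log2 fold change was -0.01. Fpr1, the formyl peptide receptor, rose from 1.57 ± 0.107 to 2.69 ± 0.185 CPM (SD, n = 3; log2 fold change 0.77, standard error 0.21, adjusted p = 0.0049, edgeR). Fcrl1, an Fc receptor-like gene, rose from 22.5 ± 0.84 to 27.6 ± 0.709 CPM, and Cr1l, which encodes the rodent complement regulator Crry, fell from 55.9 ± 0.656 to 49.96 ± 1.29 CPM. Of the complement receptors in this list, Cr2 had 2 counts in all, and Vsig4, encoding the macrophage C3b receptor CRIg, had 0 counts in all 6 libraries, which allows at most 0.0657 to 0.0756 CPM per library (3 counts, counting error only). Itgax, the α chain of the related complement receptor CR4 and named here after its values were seen, measured 4.54 ± 0.316 CPM in CON and 4.35 ± 0.517 after sTREM-1 (log2 difference -0.06, 95% interval -0.35 to 0.22, adjusted p = 0.8, edgeR).

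Downstream of the γ chain, the list of Fc receptor kinases and adaptors had 15 of 29 tested genes called, 7 higher and 8 lower, around a median of 0.03 on the log2 scale. That share was 51.7%, beside 30.5% of all tested genes and 47.6% of those at or above the level of C5ar1. The list also holds lower genes, among them Pld2 and Prkce, so 51.7% and 47.6% are not like for like. Syk, the kinase that docks on the γ chain, rose from 306 ± 1.42 to 353 ± 11.1 CPM (log2 fold change 0.21, standard error 0.03, adjusted p = 1.7e-07, edgeR). Lyn and Fyn are members of the Src family, whose kinases phosphorylate the γ chain. Lyn fell by 0.21 and Fyn fell by 0.33 on the log2 scale, with standard errors of 0.03 and 0.04. The adaptor Grb2 rose from 138 ± 0.238 to 165 ± 6.22 CPM, and Lat2, a membrane adaptor of the same cascade, fell from 164 ± 5.24 to 135 ± 3.79 CPM.

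On the inhibitory side, where Fcgr2b acts, 9 of 18 listed phosphatases, inhibitory receptors and adaptors were called, 6 higher and 3 lower, around a median of 0.03 on the log2 scale. That share was 50%, beside 30.5% of all tested genes and 47.6% of those at or above the level of C5ar1. This list too holds lower genes, among them Dok1 and Ptpn22, so 50% and 47.6% are not like for like. Csk, the kinase that keeps Src-family kinases inactive, rose by a log2 fold change of 0.34 from 45.7 ± 0.857 to 57.9 ± 1.88 CPM (SD, n = 3; adjusted p = 1.8e-07, edgeR). Inppl1, which encodes the inositol phosphatase SHIP2, rose by 0.22 on the log2 scale, and Pirb, a paired immunoglobulin-like inhibitory receptor, by 0.30. Lilrb4a and Cd300a, further inhibitory receptors, fell by 0.21 and 0.19, and Ptpn11, the phosphatase SHP-2, fell by 0.07. Lilrb4a was the most abundant of these 6 genes, at 817 ± 14.6 CPM in CON and 707 ± 19.96 after sTREM-1. Inpp5d (SHIP1) and Ptpn6 (SHP-1), named here after their values were seen, were also called higher. They rose by 0.12 and 0.11 on the log2 scale (adjusted p = 0.007 and 0.0011, edgeR).

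CR3 binds its ligand only after its β chain has been switched on from inside the cell. In the list for β2 integrin activation, which holds activators and negative regulators, 12 of 19 tested genes were called, 9 higher and 3 lower, around a median of 0.14 on the log2 scale. Because both kinds are in the list, its counts and median do not say whether activation was favoured. The called share was 63.2%, beside 30.5% of all tested genes and 47.6% of those at or above the level of C5ar1. Flna, an actin crosslinker that binds integrin tails, rose from 660 ± 4.24 to 814 ± 17.4 CPM (log2 fold change 0.30, standard error 0.02, adjusted p = 2.5e-12, edgeR). Fermt3, encoding the haematopoietic integrin activator kindlin-3, rose by 0.20, and the adhesion kinase gene Ptk2b by 0.28 on the log2 scale. The members that fell were Rap1b, from 380 ± 5.57 to 319 ± 6.82 CPM, Rap1a, from 141 ± 2.08 to 127 ± 2.17 CPM, and Itgb1bp1, from 55.3 ± 2.65 to 47.5 ± 0.573 CPM. Rap1a and Rap1b are small GTPases that recruit the activator talin, and Itgb1bp1 acts on β1 rather than β2 integrins.

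For the G proteins, arrestins and kinases to which C3ar1 and C5ar1 couple, calls were made for 13 of 21 genes, 7 higher and 6 lower, around a median of 0.03 on the log2 scale. The called share was 61.9%, beside 30.5% of all tested genes and 47.6% of those at or above the level of C5ar1. Arrb1, encoding β-arrestin 1, rose from 142 ± 3.24 to 212 ± 3.10 CPM (log2 fold change 0.58, standard error 0.03, adjusted p = 5e-16, edgeR). Pik3cg and Pik3r5, the catalytic and a regulatory subunit of the phosphoinositide 3-kinase that G protein-coupled receptors activate, rose by 0.32 and 0.29 on the log2 scale. Rgs2 and Rgs1, which end G protein signals, fell by 0.42 and 0.31, and Gnai3, an inhibitory G protein α subunit, fell by 0.26. Rgs2 dropped from 491 ± 14.6 to 367 ± 1.75 CPM. The inhibitory α subunits did not move together. Gnai2, named here after its values were seen, rose from 222 ± 3.37 to 259.5 ± 3.43 CPM (log2 fold change 0.22, adjusted p = 4.3e-08, edgeR).

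The proteins that complement receptors recognise are partly made by microglia. Of 16 genes for complement opsonin and anaphylatoxin sources, 10 were tested and 3 were called, all of them higher, around a median of 0.09 on the log2 scale. The called share, 30%, was that of all tested genes, 30.5%. The called genes were the 3 chains of C1q, the recognition unit of the classical pathway. C1qb rose from 77.8 ± 0.0392 to 94.1 ± 1.73 CPM, C1qc from 39.9 ± 1.46 to 46.8 ± 3.53 CPM, and C1qa from 1.59 ± 0.335 to 2.55 ± 0.184 CPM (SD, n = 3), with adjusted p of 1.8e-07, 0.00067 and 0.018 in edgeR's test. C3, the gene of the protein that gives the iC3b bound by CR3 and the C3a bound by C3ar1, was not called. Named here after its values were seen, C3 measured 162 ± 0.951 CPM in CON and 165 ± 5 after sTREM-1 (log2 difference 0.03, adjusted p = 0.51, edgeR). Among the 6 genes too low to test was Hc, with 19 counts in all 6 libraries. Hc is the gene of C5 and so of the C5a that C5ar1 binds. Cfb and Cfd of the alternative pathway, also too low to test, had 0 counts. Whether such counts reflect absent RNA or reads that were not counted was not tested.

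**Figure D5:**
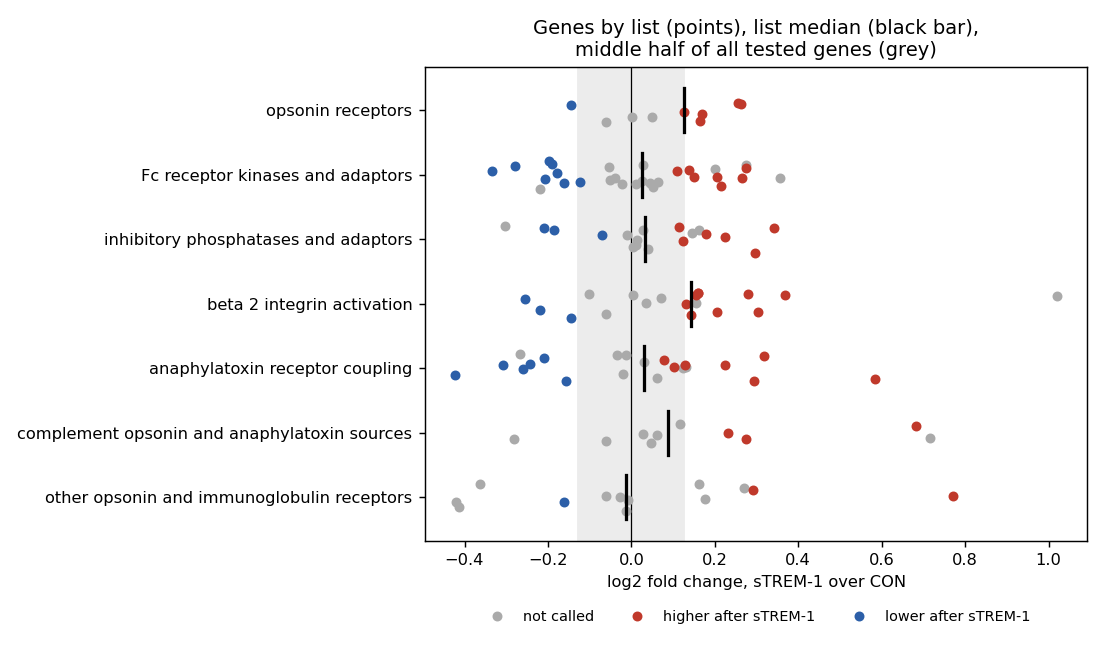
Each row is a list of genes, each point a tested gene, and the horizontal axis its log2 fold change, sTREM-1 over CON; red points were called higher, blue points lower and grey points not called. Black bars mark list medians, from -0.01 for other opsonin and immunoglobulin receptors to 0.14 for β2 integrin activation, and the grey band holds the middle 50% of all tested genes.

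The identity of the cells was read from markers. The 12 microglia and macrophage markers summed to 5619 to 5700 CPM in CON and 5864 to 6022 CPM after sTREM-1, with 5 of 11 tested markers called higher and 1 lower. The share called in either direction was 54.5%, beside 30.5% of all tested genes and 47.6% of those at or above the level of C5ar1. Some of the tested markers lie below that level. Csf1r, the receptor of the microglial growth factor CSF-1, rose from 521 ± 3.13 to 753 ± 20.5 CPM, Adgre1 and Trem2 rose by 0.13 and 0.14 on the log2 scale, and Cd14 fell by 0.12. The rise was not shared by all markers. Named here after their values were seen, Lyz2 measured 3048 ± 40.4 CPM in CON and 3038 ± 46.8 after sTREM-1 (adjusted p = 0.88, edgeR). Cd68 measured 605 ± 11.4 and 589 ± 21.0 CPM (adjusted p = 0.25, edgeR). In CPM, Csf1r had the largest rise of all the markers. The marker sum rose beside the receptor genes, and its part in their changes was not tested. Counts of markers that define microglia in the brain were near or at 0: Aif1 had 0 counts in every library, and Cx3cr1, P2ry12 and Tmem119 had mean levels of 0.945, 0.668 and 1.47 CPM in CON. Cx3cr1 was called higher after sTREM-1, at 1.77 CPM (adjusted p = 0.016, edgeR), a change given here after its values were seen. The build and annotation behind the counts are not known. Whether rows at 0 reflect absent RNA or reads that were not counted was not tested. Neuron, astrocyte, lymphocyte and neutrophil markers summed to at most 1.26 CPM in any library, with Ly6g, S100a9, Cd3e, Ms4a1 and Rbfox3 at 0 counts in all, and oligodendrocyte markers to 7.31 to 7.94 CPM in CON and 5.63 to 6.70 CPM after sTREM-1.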

How the data were processed

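RNA of BV2 cells was sequenced in 3 CON and 3 sTREM-1 libraries. Raw read counts, 1 row per gene symbol, were deposited by the authors, whose methods name FastQC, RSEM, FPKM values and edgeR and give another number of replicates than the labels and the table, which hold 3 per group. The submitters' processing notes name HISAT2 2.0.4 and the human builds hg19 and GRCh38, although the symbols are those of mouse. The build, annotation and strand setting behind the counts are otherwise not given in the sources used here.

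Groups came from the labels. The filterByExpr rule (minimum count 10) kept 14120 genes, TMM set the library sizes, and edgeR 4.0.16 (R 4.3.3) fitted the quasi-likelihood model to the whole table without covariates, with Benjamini-Hochberg adjustment. Alternatives were RLE and upper quartile scaling, other filters, DESeq2 1.42.0, limma 3.58.1 (voom), a replicate block and leaving out each library. Exon lengths, positions and shared windows came from GENCODE M21 (GRCm38) and promoters from RefSeq, by symbol, and may differ from the annotation counted. The longest and shortest transcript lengths were added after seeing the data. The procedure was tested on simulated data with planted changes of 1.5-fold in a small part of the genes. None of the 9 receptor genes changed by that much, so the simulation does not bear on calls of their size.

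Members and lists were chosen with earlier results of these data known. In each list, at most 3 called genes per direction with the smallest p were named, and genes too low to test or said to be chosen later could be named too. A gene that this rule selects is not reported here. Libraries of 1 group differed by more than sampling noise (chi-square per gene 3.45 to 4.99, against 20.3 to 22.3 between groups), so none was counted as a duplicate.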

Additional observations from a re-analysis of the deposited data

How the results depend on the processing

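The calls of Fcgr1, Fcgr3, Fcer1g and C5ar1 held in all 13 other settings tried (RLE and upper quartile scaling, no filter, a filter of at least 10 counts in every library, DESeq2, limma voom, the replicate block, and each library left out), and Fcgr2b, Itgam and C3ar1 stayed uncalled in all of them. Fcgr4 and Itgb2 lost their calls when a single library was left out. Leaving out each library in turn gave log2 fold changes of 0.133 to 0.208 for Fcgr4 and 0.087 to 0.16 for Itgb2, a median over the 9 genes of 0.087 to 0.133, and 5 or 6 receptor genes called. C3ar1, near no difference, changed sign with RLE scaling, the filter of at least 10 counts and DESeq2 (-0.002 in each), with upper quartile scaling (-0.02), and over a range of -0.013 to 0.007 with libraries left out. The cause was not tested. At a change of at least 1.5-fold, 301 genes and 0 of the 9 receptor genes were called.

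The replicate numbers are shared between groups in the labels, but same-numbered libraries did not deviate together (correlations -0.0178, -0.0335 and -0.0137). With the replicate block 4613 genes were called, 2474 higher and 2139 lower, and no receptor gene changed its call. The paired exact permutation p of the ratios was 0.25, and 0.5 for Itgam to Itgb2. With 3 libraries a group, changes of a few percent, as in Itgam, lay at the limit of what could be called.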
